A study of Mus musculus with 12 samples.

Results

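The set comprised 10 genes of the Notch pathway, described across 2 tissues of the mouse embryo: the receptors Notch1, Notch2 and Notch3, the ligands Dll4, Jag1 and Jag2, and the target genes Hey1, Hey2, Heyl and Hes1. They were taken by gene name from a comparison table of 21563 genes, where each of the 10 names had 1 row, and all 10 had a mean of at least 5 normalized gene counts over the libraries. The tissues were the heart tube (HT) and the posterior second heart field (pSHF), the mesoderm behind the heart that is known as a source of atrial and septal cells. The libraries, 6 of HT and 6 of pSHF, hold poly-A RNA of wild-type CD1 embryos at E10.0, without treatment or transgene, and each embryo gave both tissues according to the labels' protocols. The labels do not say whether embryos were pooled, and p-values here measure no more than the spread among these libraries, which may be technical.

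Notch receptors are single-pass membrane proteins that are cut when a Delta or Jagged ligand on a neighbouring cell binds them, and the released intracellular part joins the DNA-binding protein RBPJ to switch on Hes and Hey genes, which encode transcriptional repressors. In the developing heart, Dll4 and Notch1 are best known from the endocardium, where they act on trabeculation and valve formation. Hey1 marks atrial and Hey2 ventricular myocardium, and Notch3 and Heyl are known from the mural cells that surround vessels.

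Library depths, rebuilt by taking the most common low value of each library as 1 read, ran from 19089600 to 26287300. Only 46.5 to 49.4% of low values were whole multiples of that step, so these depths are uncertain. Values below are the authors' deposited normalized gene counts. The labelled tissues matched their markers: all 14 cardiomyocyte genes were higher in HT and pSHF had the higher level of all 12 genes of the second heart field. All 14 erythroid genes were higher in HT, and their share of the counts was 1.66 to 7.12% in HT libraries and 0.353 to 0.697% in pSHF libraries. The threshold, an adjusted p of 0.05, was passed by 78.3% of the 14909 genes with a mean of at least 5 (limma on log2 of the value plus 1, Benjamini-Hochberg), 5708 with higher levels in HT and 5968 in pSHF. When the libraries were instead given equal totals, the median log2 fold change moved by -0.25 and the split became 3917 against 8185. Each member is therefore given under both scalings, called the deposited scaling and equal library totals. Since these are bulk samples, fewer cells of a type and less RNA per cell cannot be told apart.

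Under the deposited scaling 9 of the 10 members passed the threshold, against 78.3% of all genes, 5 with higher levels in HT (38.3% of all genes) and 4 in pSHF (40% of all genes). These shares lie near the background, as does the count of members whose libraries did not overlap between tissues, 6 of 10 against 60.5% of all genes (HT above for 2 members and 30.1% of genes, pSHF above for 4 members and 30.3% of genes). Differences of more than 2-fold were found for 4 of 10 members, against 27% of all genes: Hey2 was higher in HT (13.4% of genes), and Notch2, Notch3 and Heyl were higher in pSHF (13.6% of genes). The median log2 fold change of the members was 0.12, against -0.02 over all genes tested. Receptors, and likewise targets, included members higher in HT and members higher in pSHF. With equal library totals 7 of 10 members passed, 2 higher in HT and 5 in pSHF, against 81.1% of all genes, 26.2% and 54.8% by direction.

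**Figure D1:**
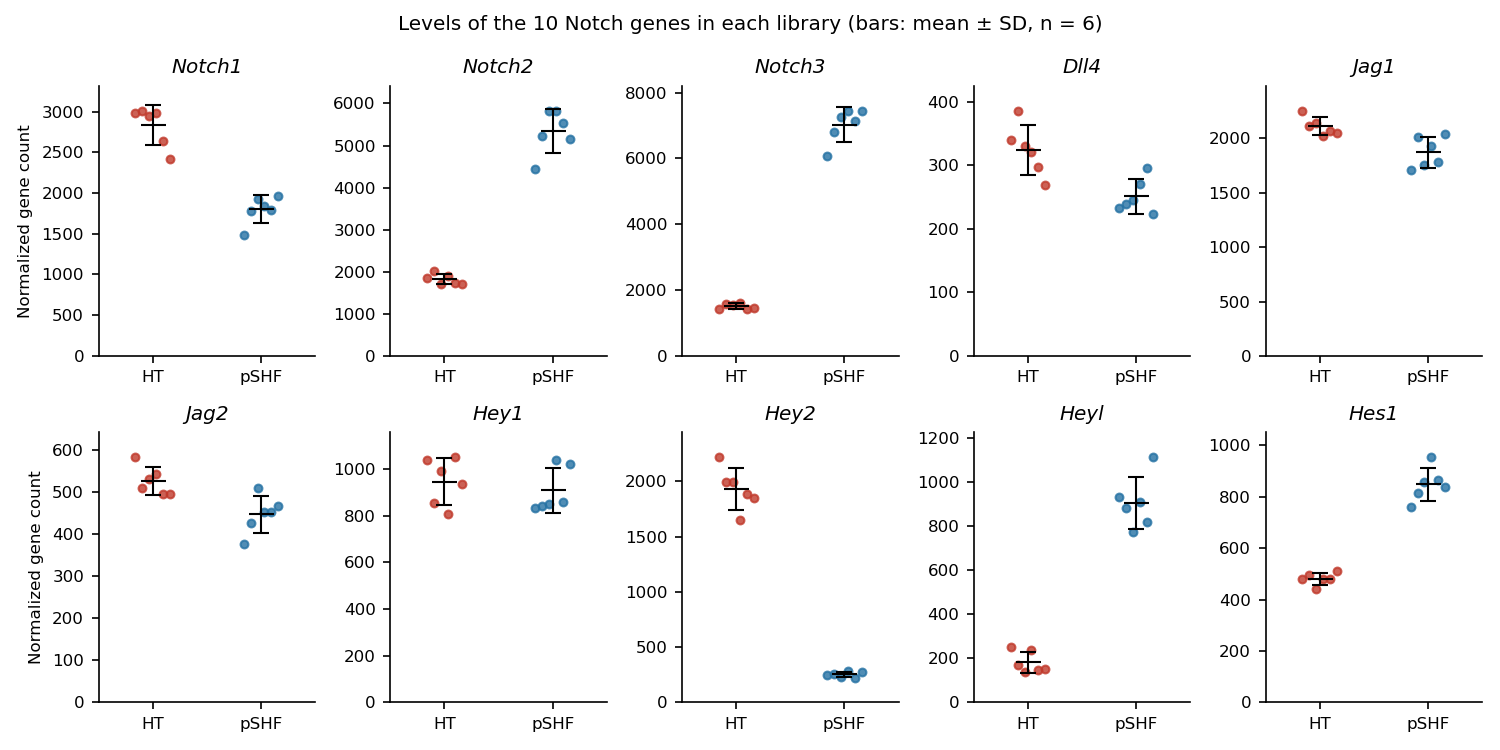
Normalized gene counts (vertical axes, starting at 0) of the 10 members in the 6 HT and 6 pSHF libraries, 1 point per library, with mean and SD as black bars. Notch1 and Hey2 lie higher in every HT library, Notch2, Notch3, Heyl and Hes1 in every pSHF library, and the points of Dll4, Jag1, Jag2 and Hey1 overlap.

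Among the receptors, Notch1 was higher in HT, and Notch2 and Notch3 were higher in pSHF. Notch3 (ENSMUSG00000038146.7; mm10 chromosome 17, 32120820 to 32166852, minus strand) stood at 1416 at the lowest, 1499 at the median and 1618 at the highest in HT, and at 6062, 7194 and 7454 in pSHF. Every pSHF library lay far above every HT library. The difference was 4.65-fold (log2 fold change -2.22, standard error 0.053, adjusted p = 2.8e-14 in limma), or 5.51-fold with equal library totals. Notch2 (ENSMUSG00000027878.10; chromosome 3, 98013527 to 98150361, plus strand) ran from 1705 through a median of 1799 to 2008 in HT, and from 4435 through 5387 to 5831 in pSHF. Its libraries were also fully apart, by 2.92-fold (log2 fold change -1.55, standard error 0.064, adjusted p = 6.3e-12 in limma), or 3.46-fold with equal library totals.

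Notch1 (ENSMUSG00000026923.11; chromosome 2, 26457903 to 26516663, minus strand), the receptor of the endocardium, went the other way. Its levels ran from 2421 through a median of 2968 to 3013 in HT, and from 1485 through 1818 to 1966 in pSHF. In HT 4 libraries lay close together between 2952 and 3013, and MR29 and MR30 were lower, at 2641 and 2421. The tissues did not overlap, and HT was 1.57-fold higher (log2 fold change 0.66, standard error 0.070, adjusted p = 4.7e-07 in limma); with equal library totals the fold was 1.33 and the adjusted p 5.6e-05. The annotation places exons of 0610009E02Rik on the opposite strand over 7.5% of the exon bases of Notch1, and exons of Gm17276 over 6.03% of those of Notch3. The labels name a kit without strand marking but also call the reads stranded, so reads of these overlaps may belong to either gene.

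Levels per kb, here and for ligands and targets below, use the merged exons of all annotated transcripts of a gene. These come to 14232 bases for Notch1, 10782 for Notch2 and 8089 for Notch3. Where the transcripts present are shorter, the level per kb is understated, so orders, sums and shares between genes depend on these lengths. On them, Notch1, Notch3 and Notch2 were at similar levels in HT, with 199 ± 17.2, 186 ± 10.7 and 169 ± 11.4 normalized gene counts per kb (SD, n = 6). Neighbours in that order differed by about their spread. In pSHF the order was Notch3 at 868 ± 65.3, Notch2 at 495 ± 48.5 and Notch1 at 126 ± 11.99 per kb, each apart from the next. Notch4, the endothelial receptor and not one of the 10 members, stood at 74.6 ± 12.2 per kb in HT and 80.4 ± 14.6 in pSHF. Of the summed level of these 4 receptors, Notch1 made up 31.6% ± 1.14 in HT and 8.05% ± 0.309 in pSHF, and Notch3 29.7% ± 1.45 and 55.3% ± 1.33. The sum itself was 629 ± 41.8 per kb in HT and 1570 ± 131 in pSHF, or 580 ± 39.1 and 1715 ± 138 with equal library totals.

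**Figure D2:**
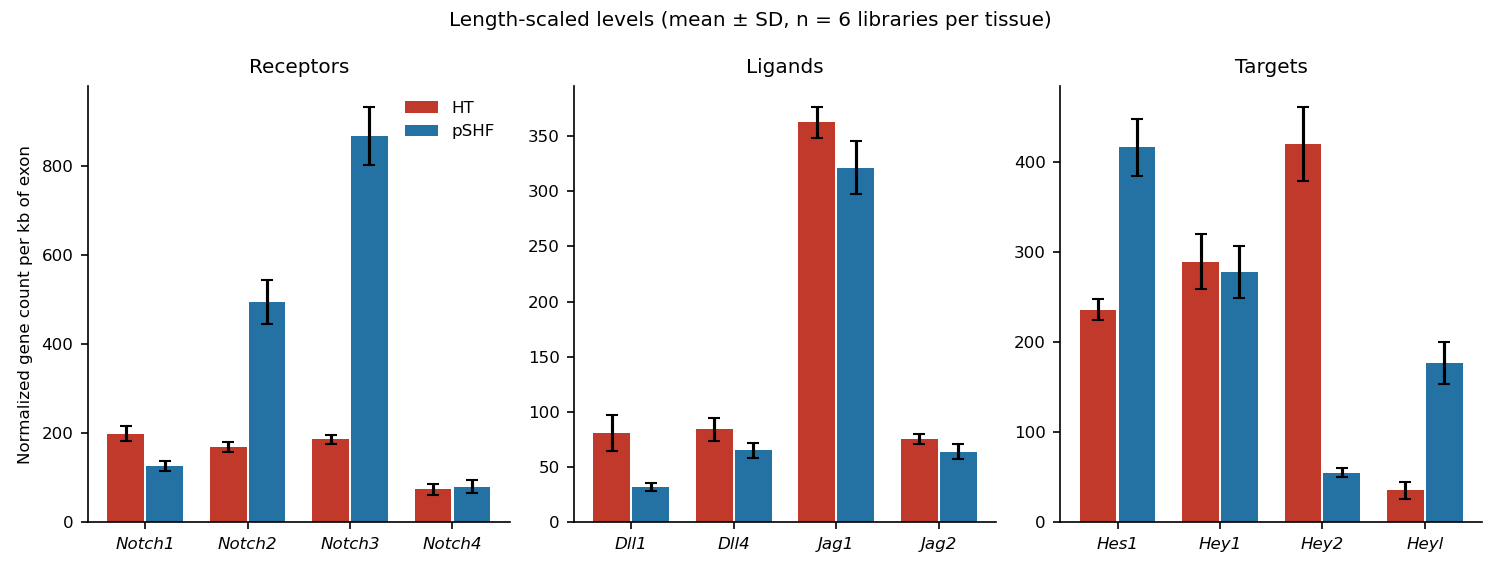
Normalized gene counts per kb of annotated exon (vertical axes, starting at 0; mean ± SD, n = 6 libraries per tissue) for receptors, ligands and targets, with Notch4 and Dll1 added to the members. Notch3 and Notch2 reach 868 and 495 per kb in pSHF against 186 and 169 in HT, Jag1 is the highest ligand in both tissues, and Hey2 falls from 420 in HT to 55.0 in pSHF.

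The 3 ligands of the set differed little between the tissues. Dll4 (ENSMUSG00000027314.6; chromosome 2, 119325784 to 119335962, plus strand), the Delta ligand of endothelium, ran from 270 through a median of 326 to 386 in HT, and from 223 through 243 to 296 in pSHF. The lowest HT library, MR30, lay below the highest pSHF library, MR17. HT was 1.29-fold higher (log2 fold change 0.36, standard error 0.091, adjusted p = 0.00201 in limma), and with equal library totals the log2 fold change was 0.12 with an adjusted p of 0.248.

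Jag1 (ENSMUSG00000027276.7; chromosome 2, 137081456 to 137116644, minus strand), the ligand mutated in Alagille syndrome in humans, ran from 2027 through 2090 to 2256 in HT and from 1710 through 1856 to 2040 in pSHF. The lowest HT library, MR28R, lay below the highest pSHF library, MR18, and all other HT libraries lay above it. Jag2 (ENSMUSG00000002799.5; chromosome 12, 112907819 to 112929776, minus strand) ran from 495 through 519 to 583 in HT and from 376 through 452 to 510 in pSHF. Libraries of the tissues overlapped for both Jagged genes. Under the deposited scaling Jag1 was 1.13-fold and Jag2 1.18-fold higher in HT, with adjusted p of 0.00355 and 0.00576 in limma, but with equal library totals the log2 fold changes turned to -0.07 (adjusted p = 0.204) and -0.01 (adjusted p = 0.913).

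Per kb of exon, Jag1 was the highest of the ligands in both tissues, at 362 ± 14.2 in HT against 321 ± 24.03 in pSHF. Dll4, Dll1 and Jag2 followed in HT at 84.1 ± 10.3, 80.9 ± 16.3 and 75.5 ± 4.88, which did not differ beyond their spread. In pSHF Dll4 and Jag2 were alike within their spread, at 65.3 ± 7.06 and 64.2 ± 6.37, and Dll1 was lower at 32.4 ± 3.71. Jag1 made up 60.2% ± 2.06 of the summed level of these 4 ligands in HT, against 66.5% ± 1.99 in pSHF.

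**Figure D3:**
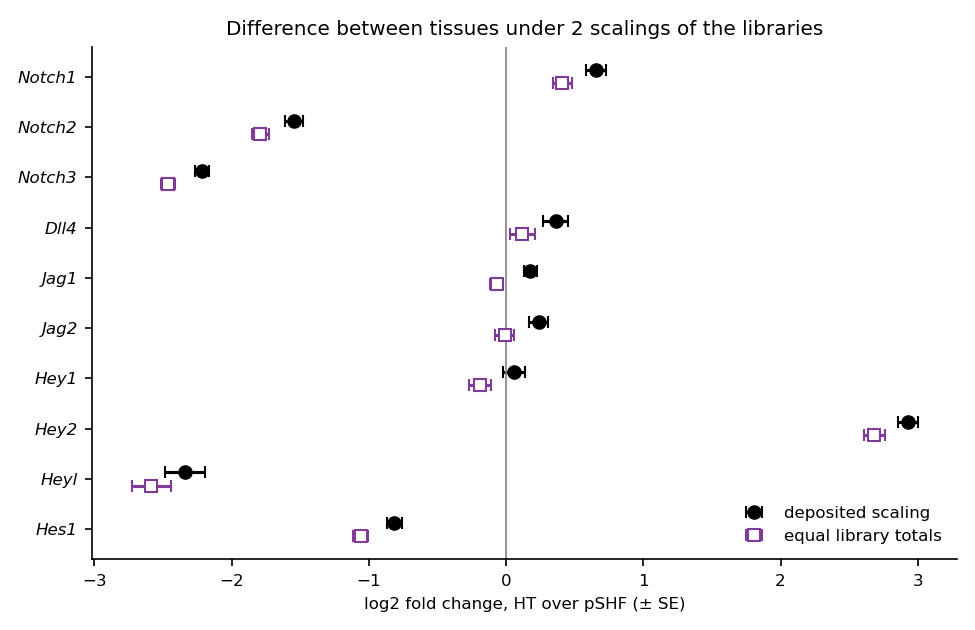
Log2 fold change of each member, HT over pSHF (horizontal axis, ± SE), under the deposited scaling (filled circles) and with equal library totals (open squares). Notch1 and Hey2 stay above 0 and Notch2, Notch3, Heyl and Hes1 below 0 under both scalings, whereas Jag1, Jag2 and Hey1 change sign and Dll4 drops from 0.36 to 0.12.

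The target genes showed 3 patterns: Hey2 was higher in HT, Heyl and Hes1 were higher in pSHF, and Hey1 did not pass. Hey2 (ENSMUSG00000019789.8; chromosome 10, 30832359 to 30842801, minus strand), the repressor of ventricular myocardium, ran from 1651 through a median of 1935 to 2219 in HT, and from 223 through 254 to 280 in pSHF. The lowest HT library was far above the highest pSHF library. HT was 7.61-fold higher (log2 fold change 2.93, standard error 0.072, adjusted p = 3.9e-14 in limma), and 6.42-fold with equal library totals. Of 9 ventricular genes, 8 were higher in HT (38.3% of all genes), with Myl2, the ventricular myosin light chain, at 74284 ± 7499 in HT against 56.2 ± 35.5 in pSHF. In pSHF 1 was higher (40% of all genes), Mycn at 1308 ± 71.0 in HT and 1492 ± 87.4 in pSHF. Summed cardiomyocyte genes ran from 749500 to 906128 in HT and from 31287 to 69183 in pSHF, and their part in the Hey2 difference was not tested beyond the ratio given below.

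Hey2 is also the only one of the 7 members with a promoter entry in the sequence table used here whose window holds the RBPJ core motif. It is the only target gene among the 7, so the match cannot be compared between targets or tied to direction. The windows run from 250 bases before to 50 after the start that the table gives for each gene (RefSeq, GRCm38.p6), and Hey1, Heyl and Hes1 were not among the entries matched. For Notch1 this window lies inside the gene interval given above, away from its annotated end on the start side, so a start at that end was not searched. The motif searched was GTGGGAA on both strands, TTCCCAC on the other; it stood in 6.38% of 32851 windows, and 0.256% held 2 or more. The Hey2 window (chr10:30842734-30843033, minus strand) is shown with both matches in capitals, at bases 44 and 247 of the window and in opposite orientations, and the Notch3 window (chr17:32166841-32167140, minus strand), with no match, is shown beside it as the receptor with the widest difference the other way.
Hey2: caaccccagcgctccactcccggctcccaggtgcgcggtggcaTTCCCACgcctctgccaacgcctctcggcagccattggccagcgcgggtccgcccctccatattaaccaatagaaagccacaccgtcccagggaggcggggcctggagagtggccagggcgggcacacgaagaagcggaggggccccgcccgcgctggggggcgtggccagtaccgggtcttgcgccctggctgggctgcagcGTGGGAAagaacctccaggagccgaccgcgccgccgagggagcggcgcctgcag
Notch3: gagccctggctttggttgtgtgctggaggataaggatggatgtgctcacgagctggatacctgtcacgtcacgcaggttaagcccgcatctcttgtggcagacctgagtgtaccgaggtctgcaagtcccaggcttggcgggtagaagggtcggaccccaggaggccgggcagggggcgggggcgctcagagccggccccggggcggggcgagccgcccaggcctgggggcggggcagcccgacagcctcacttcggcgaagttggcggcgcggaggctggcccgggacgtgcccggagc
A match is a description of letters and not of binding. The E-box CACGTG, found in 7.15% of windows, was in none of the 7, and CACGCG, a form bound by Hes and Hey proteins, found in 9.27% of windows, was in those of Dll4, Jag1, Notch2 and Jag2. CACGTG reads alike on both strands, CACGCG was searched with its complement CGCGTG, and the 3 motifs do not overlap in the shown windows.

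Heyl (ENSMUSG00000032744.4; chromosome 4, 123233556 to 123249875, plus strand), a Hey relative of mural cells, ran from 137 through a median of 161 to 251 in HT, and from 773 through 897 to 1115 in pSHF. In HT MR25 and MR28R stood at 251 and 236 and the other 4 libraries between 137 and 171, the widest relative spread of any member (coefficient of variation 27.0%). All pSHF libraries lay above all HT libraries, by 5.07-fold (log2 fold change -2.34, standard error 0.15, adjusted p = 8.1e-10 in limma), or 6.003-fold with equal library totals.

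Hes1 (ENSMUSG00000022528.7; chromosome 16, 30064384 to 30067796, plus strand), the broadly expressed Notch target that keeps progenitors undifferentiated in many tissues, ran from 442 through 481 to 510 in HT and from 760 through 847 to 955 in pSHF. Its tissues were fully apart and its HT libraries close together. The difference was 1.76-fold (log2 fold change -0.81, standard error 0.055, adjusted p = 2.0e-09 in limma), and 2.08-fold with equal library totals.

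Hey1 (ENSMUSG00000040289.4; chromosome 3, 8663359 to 8667256, minus strand), the repressor of atrial myocardium, ran from 805 through 963 to 1051 in HT and from 834 through 855 to 1039 in pSHF. The libraries of the tissues covered almost the same range. The log2 fold change of Hey1 was 0.06 (standard error 0.078, adjusted p = 0.504 in limma), and with equal library totals it was -0.19 and passed (adjusted p = 0.0427). The 10 genes of atrial and sinus myocardium went both ways. In HT 5 were higher (38.3% of all genes), such as Myl4 (46539 ± 3978 in HT against 3881 ± 983 in pSHF). In pSHF 4 were higher (40% of all genes), such as Nr2f1 (673 ± 82.9 in HT against 3161 ± 162 in pSHF). With equal library totals the split was 4 against 5 (26.2% and 54.8% of all genes). Myl7, among those higher in HT, is also in the cardiomyocyte list, and the part of heart muscle content in these differences was not tested.

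Per kb, the order of the targets in HT was Hey2 at 420 ± 41.1, Hey1 at 290 ± 30.6, Hes1 at 236 ± 11.2 and Heyl at 35.6 ± 9.62. In pSHF it was Hes1 at 416 ± 31.5, Hey1 at 278 ± 29.0, Heyl at 177 ± 23.2 and Hey2 at 55.0 ± 4.89. The summed level of the 4 targets was 982 ± 62.9 per kb in HT and 927 ± 68.3 in pSHF under the deposited scaling, a gap smaller than the SD, but 906 ± 68.5 and 1012 ± 70.8 with equal library totals, a gap larger than the SD and in the other direction. Hey2 made up 42.8% ± 1.91 of it in HT and 5.94% ± 0.34 in pSHF, and Hes1 24.2% ± 2.02 and 45.0% ± 2.55.

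Ratios within a library do not depend on how libraries were scaled, and 10 were tested with a two-sided exact permutation test over 924 splits of the 6 against 6 libraries, adjusted over the 10. The 7 whose libraries did not overlap gave the smallest p that this unpaired test allows, 0.00216 (adjusted p = 0.00309, exact). Pairing by embryo could not be fitted, although each embryo gave both tissues. Libraries of 60.5% of single genes did not overlap either, and no such share was computed over other ratios. For Notch2 and Notch3 against Notch1 the outcome was fixed in advance, since both genes of the ratio were already apart in opposite directions. The log2 ratio of Hey2 to Hey1 was 1.03 ± 0.13 in HT against -1.84 ± 0.094 in pSHF, so Hey2 had more counts than Hey1 in every HT library and fewer in every pSHF library. The ratio of Notch3 to Notch1 was -0.91 ± 0.10 in HT against 1.97 ± 0.051 in pSHF, that of Notch2 to Notch1 -0.63 ± 0.093 and 1.57 ± 0.093, and that of Heyl to Hey1 -2.41 ± 0.44 and -0.01 ± 0.15.

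The ligand ratios did not pass. The log2 ratio of Jag2 to Jag1 differed by 0.06 between the tissues (exact p = 0.429). Dll4 relative to Jag1 was -2.71 ± 0.16 in HT against -2.89 ± 0.21 in pSHF (exact p = 0.115, adjusted 0.13); without pSHF library MR17, the highest in Dll4, the difference was 0.25 and the adjusted p 0.0298 (exact).

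**Figure D4:**
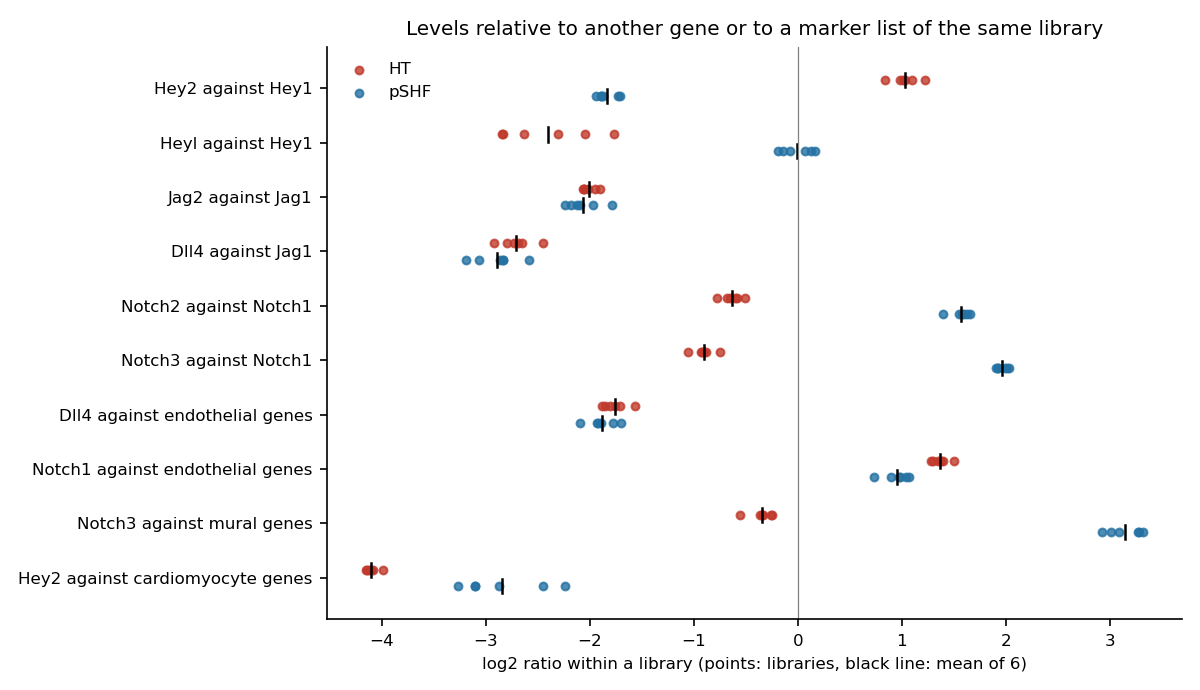
Log2 ratio of a member to another gene, or to the mean log2 level of a marker list, within each library (horizontal axis; red points HT, blue points pSHF, black lines the means of 6). Red and blue points are fully apart for 7 of the 10 ratios and overlap for Jag2 against Jag1, Dll4 against Jag1 and Dll4 against endothelial genes.

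Endothelial and endocardial genes, the setting in which Notch1 and Dll4 are best known, differed in both directions. HT had the higher level of 11 of the 17 (38.3% of all genes), led by the endocardial transcription factor gene Nfatc1 (1745 ± 116 in HT against 315 ± 47.0 in pSHF). In pSHF 4 were higher (40% of all genes), led by Cldn5 (29.5 ± 6.57 in HT against 556 ± 37.4 in pSHF). With equal library totals the split was 8 against 6 (26.2% and 54.8% of all genes). Their summed level ran from 33005 to 40890 in HT and from 19860 to 21803 in pSHF, and none was at 0 in a tissue. Relative to the mean log2 level of the list, Notch1 was still higher in HT, 1.37 ± 0.080 against 0.95 ± 0.12 (adjusted p = 0.00309, exact), but relative to the list's median the difference was 0.08 and did not pass (adjusted p = 0.192). Dll4 relative to the list mean was -1.76 ± 0.12 in HT against -1.89 ± 0.14 in pSHF (adjusted p = 0.13, exact), and relative to the list median it was lower in HT, by a difference of -0.21 (adjusted p = 0.0216).

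Mural and smooth muscle cells are where Notch3 and Heyl are known from. Of 10 genes of these cells, 6 were higher in HT (38.3% of all genes), such as Abcc9 (5415 ± 739 in HT against 275 ± 67.6 in pSHF). In pSHF 4 were higher (40% of all genes), among them Pdgfrb, the platelet-derived growth factor receptor of pericytes and mesenchyme (1352 ± 87.4 in HT against 5707 ± 512 in pSHF). Several genes of the list are also known from embryonic heart muscle. Their summed level ran from 68293 to 84025 in HT and from 14810 to 19165 in pSHF. Relative to the mean log2 level of the list, Notch3 stood at -0.35 ± 0.11 in HT against 3.15 ± 0.16 in pSHF (adjusted p = 0.00309, exact). The list itself had a median log2 fold change of 2.27, toward HT. This ratio therefore holds the difference of the list as well as that of Notch3, and gives no level of Notch3 per mural cell. With the list mean at 10.9 ± 0.080 in HT and 9.62 ± 0.16 in pSHF (log2), the separation of this ratio was fixed in advance. Hey2 relative to 14 cardiomyocyte genes was lower in HT, -4.10 ± 0.062, than in pSHF, -2.84 ± 0.41, in all libraries (adjusted p = 0.00309, exact), the list itself having a median log2 fold change of 3.90.

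Of the other pathway genes, 50 of 54 were tested. Of these 16 were higher in HT (38.3% of all genes), 27 in pSHF (40% of all genes) and 7 did not pass. With equal library totals 11 were higher in HT (26.2% of all genes) and 34 in pSHF (54.8% of all genes). The median log2 fold change of these pathway genes was -0.18 under the deposited scaling, against -0.02 over all genes. Among other ligands and receptors, Dll1, a Delta ligand, was higher in HT (341 ± 68.8 in HT against 137 ± 15.7 in pSHF), and Dlk1, a Delta-like protein without the receptor-binding domain of the classical ligands, was higher in pSHF (1056 ± 70.9 and 6035 ± 656). Dll3, low in both tissues, stood at 2.69 ± 2.09 in HT against 22.4 ± 4.96 in pSHF. Notch4 stood at 602 ± 98.6 and 648 ± 117 and did not pass (adjusted p = 0.458 in limma), but passed toward pSHF with equal library totals (adjusted p = 0.0176).

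Of 19 genes that process receptors and ligands, 8 were higher in HT (38.3% of all genes) and 8 in pSHF (40% of all genes). With equal library totals the split was 5 against 11 (26.2% and 54.8% of all genes), and both splits lay near the background. The ubiquitin ligase gene Neurl1b, whose product acts on ligands (534 ± 34.7 in HT against 135 ± 12.7 in pSHF), and Psen2, a catalytic subunit of gamma-secretase (366 ± 46.7 and 156 ± 11.7), were higher in HT. The Fringe glycosyltransferase genes Mfng (72.1 ± 7.52 in HT against 296 ± 14.2 in pSHF) and Lfng (106 ± 10.9 and 187 ± 18.4), which alter the response of receptors to ligands, and the ligand-activating Mib1 (4083 ± 182 and 5377 ± 224) were higher in pSHF.

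In the nuclear complex 10 of 12 genes were higher in pSHF, where 40% of all genes were, and 1 in HT; with equal library totals the split was 11 against 1, where 54.8% of all genes were higher in pSHF. Rbpj, the DNA-binding partner of all Notch receptors, stood at 1745 ± 78.2 in HT against 2940 ± 107 in pSHF (log2 fold change -0.75, adjusted p = 4.7e-11 in limma). The exception was Kat2b, a histone acetyltransferase gene, at 1200 ± 160 in HT against 237 ± 63.9 in pSHF. Of 10 inhibitor and turnover genes 6 were higher in pSHF, Dtx1 (8.22 ± 2.66 in HT against 81.1 ± 29.0 in pSHF) and Dtx4 (153 ± 14.6 and 665 ± 73.7) among them, and 2 in HT. With equal library totals 8 of these 10 were higher in pSHF and 2 in HT.

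Of 8 further Hes-type genes, 4 were tested and all 4 were higher in HT, where 38.3% of all genes were, led by Bhlhe40 (506 ± 113 in HT against 186 ± 31.7 in pSHF). With equal library totals 2 of the 4 passed, Bhlhe40 and Bhlhe41. Hes6 and Hes7 did not (adjusted p = 0.0775 and 0.0589 in limma), and Hes7 was low in both tissues (11.8 ± 4.16 in HT against 6.17 ± 2.37 in pSHF). Hes2, Hes3, Hes5 and Helt were under the filter. Of 8 somite clock genes, 3 passed toward HT and 4 toward pSHF, or 1 and 5 with equal library totals, with Dll1 and Dll3 at either end. Over all genes 38.3% passed toward HT and 40% toward pSHF, or 26.2% and 54.8% with equal library totals.

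**Figure D5:**
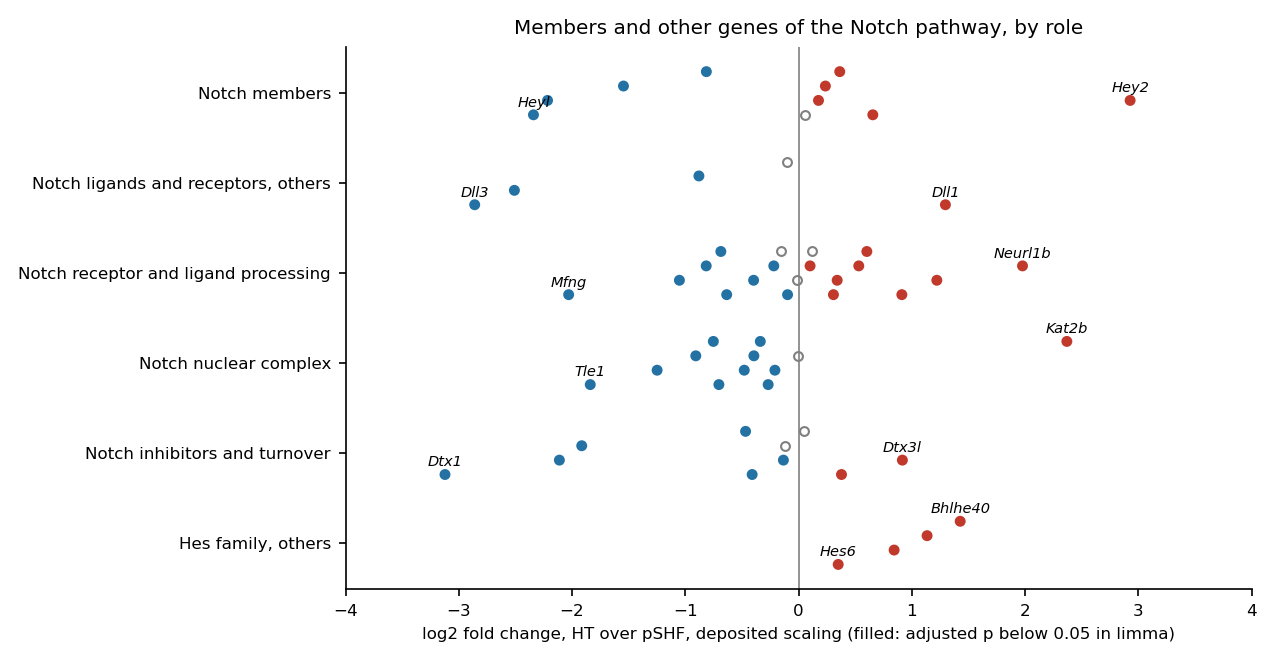
Log2 fold change, HT over pSHF under the deposited scaling (horizontal axis), of the members and of the other tested pathway genes grouped by role, 1 point per gene; filled points passed an adjusted p of 0.05 in limma, and the vertical offset within a row has no meaning. The nuclear complex lies mostly left of 0 with Kat2b far to the right, and every other role has genes on both sides except the further Hes-type genes.

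Genes known as endocardial effectors of Notch also went both ways, 4 of 10 higher in HT and 6 in pSHF. Bmp10, a growth factor of trabecular myocardium, stood at 777 ± 71.9 in HT against 28.6 ± 4.82 in pSHF, and Snai1, a driver of epithelial-mesenchymal transition, at 249 ± 29.0 and 1538 ± 82.2. Of 7 arterial genes 4 were higher in HT, with Gja5 at 3395 ± 296 in HT against 833 ± 99.9 in pSHF, and 3 in pSHF, with Acvrl1 at 106 ± 17.2 and 498 ± 60.7. Gja5 is also in the list of ventricular genes, so its level is not particular to arteries. All 5 venous genes were higher in pSHF, from Aplnr (213 ± 41.5 in HT against 1599 ± 111 in pSHF) to Flt4 (753 ± 61.6 and 932 ± 80.6).

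Markers of other cell types differed between the dissections too. All 12 endoderm genes, 10 of 11 neural crest genes, 5 of 7 neural genes, 8 of 10 somite genes and 4 of 9 epicardial genes had higher levels in pSHF (40% of all genes). Another 4 epicardial genes were higher in HT (38.3% of all genes). Among the 8 somite genes, Tbx6 passed narrowly (adjusted p = 0.0496 in limma), and without each library in turn its call was lost in 10 of 12 fits. The exceptions included Ednrb in the neural crest list (2652 ± 225 in HT against 1089 ± 70.3 in pSHF) and Sox3 in the neural list (156 ± 16.7 and 3.84 ± 1.46). Summed levels in pSHF were 5548 to 6945 for endoderm and 11312 to 12750 for neural crest genes, against 1218 to 1762 and 6436 to 7805 in HT. The part of these cell types in the higher pSHF levels of Notch2, Notch3, Heyl and Hes1 was not tested.

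The spread within a tissue was not the same in all libraries. In pSHF, MR13 was the lowest library for 7 of the 10 members. In HT, Hey2 fell in the same order as the erythroid share rose, from 2219 in MR25 (1.66%) to 1651 in MR28R (7.12%), a relation chosen after the values were seen. Over the 6 HT libraries Pearson's r was -0.93 (exact permutation p = 0.00139) and Spearman's rho -1 (exact permutation p = 0.00278), and r was -0.87 without the 2 libraries farthest from the median share. In pSHF, where the share ran from 0.353 to 0.697%, the sign was the opposite, with r = 0.82 for Hey2 (exact permutation p = 0.0458) and r = 0.87 for Jag1 (exact permutation p = 0.0333). Jag1 in HT had the same rank order as Hey2 (r = -0.88, exact permutation p = 0.0125; rho = -1; r = -0.94 without the 2 farthest). In HT both genes also varied with the mean log2 level of the cardiomyocyte genes (Hey2 r = 0.91, exact permutation p = 0.0111; Jag1 r = 0.81, exact permutation p = 0.0458; rho = 0.94 for each). Among the 60 relations computed, of 10 members with 3 measures of library makeup in each tissue, none passed after adjustment, the smallest adjusted p being 0.0833 (exact permutation).

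By Pearson's r over the 12 libraries on the log2 scale, a description in which all libraries share the split between tissues, the 3 genes most like Notch3 among 12335 were Gli3, Fbxl19 and Rgma (r = 0.998 each). Those most like Notch2 were Plxna1, Ephb2 and Smarcc1 (0.998 to 0.996), and those most like Notch1 were Fbn1, Clcn5 and Plxnd1 (0.991 to 0.989). For Hey2 they were Uqcrfs1, Mfn2 and Fam189a2 (0.999 each), and for Hes1 Hs3st3a1, Twist1 and Gas1 (0.993 to 0.991). Likenesses were looser for Dll4, Jag1 and Hey1, which differed little between tissues: Rundc1, F2r and Tm2d1 for Dll4 (0.933 to 0.923), Wwtr1, Etv3 and Procr for Jag1 (0.929 to 0.915), and Gm14326, Pcgf3 and Fam35a for Hey1 (0.883 to 0.781).

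The authors' deposited table gives its own DESeq2 fold changes, in which 9 of the 10 members had an adjusted p below 0.05. So did 11951 of its 18214 genes with an adjusted p, 5768 higher in HT and 6183 in pSHF. Log2 fold changes of the members ran from -2.33 for Heyl to 2.93 for Hey2, and Hey1 had an adjusted p of 0.586 (DESeq2). These fold changes and those from limma rest on the same libraries and scaling. The separate raw count table held 0 to 41 counts per member and library. There edgeR's quasi-likelihood test kept Notch1 and Notch3 past its filter and called neither (log2 fold changes 0.10 and -0.45, unadjusted p = 0.627 and 0.0589, adjusted p = 0.733 and 0.108), while 48.3% of its 3370 genes were called, 25.2% higher in HT and 23.1% in pSHF. DESeq2 on that table called 17.9% of all genes and 2 of the 10 members, Hey2 (log2 fold change 2.02, adjusted p = 0.00177) and Notch2 (-1.52, adjusted p = 0.00144). Several DESeq2 log2 fold changes were much nearer 0 than those from the normalized counts and did not pass: Notch3 was at -0.48 (adjusted p = 0.25) in place of -2.22, Heyl at -0.47 (adjusted p = 0.639) in place of -2.34, and Notch1 at 0.07 (adjusted p = 0.901) in place of 0.66. Hes1 was at -1.61 (adjusted p = 0.116) in place of -0.81.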

How the data were processed

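RNA of 6 HT and 6 pSHF libraries was analysed from a table of normalized gene counts and a table of raw counts. The authors' normalized values, a signal per gene and library, were made with STAR and DESeq2 on mm10 per the submitters' processing notes; versions, counting tool and annotation are not stated there. A further factor may apply, since 46.5 to 49.4% of low values were whole multiples of 1 step per library (tolerance 0.01 reads). The deposited table also gives the authors' log2 fold changes with standard errors, a score (fold change over its error) and p-values. The deposited raw counts summed to 233865 to 340434 per library, 1.08 to 1.30% of the depth rebuilt from those steps, and were used in alternatives alone. All 12 columns were matched to their tissue by name, and 0 were left without a group.

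Genes with a mean of at least 5 were tested with limma 3.58.1 (trend, R 4.3.3) on log2(value + 1), so fold changes of low genes are understated, with Benjamini-Hochberg adjustment over all 14909 genes and a threshold of 0.05. Ratios were tested with an exact permutation test written in Python 3.11.15 with NumPy 2.4.6. Alternatives were other pseudocounts, filters, thresholds and scalings, edgeR 4.0.16 and DESeq2 1.42.0 on the raw counts, and each library left out. On simulated data with 200 changed genes and a dispersion of 0.02, limma on 14909 genes made 8 false calls. It found 88% of the 2-fold, 72% of the 1.5-fold and 26% of the 1.3-fold changes. On simulated raw counts edgeR and DESeq2 each found 56% of the 2-fold changes. In the real data 78.3% of genes passed in limma, a far larger share than was simulated, so these rates do not carry over to the real calls. Exon lengths, merged over all annotated transcripts of a gene, and positions are from GENCODE on mm10. Named besides the members were the 5 largest and 5 smallest changes among other pathway genes (mean of at least 20 in the higher tissue), Rbpj, Notch4, Dll1, Lfng and Mib1, the extremes of each other list, and the 3 genes most like each member (mean of at least 50); those of Heyl and Jag2 are not reported here. Members and lists were chosen with earlier results of these data known.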

Additional observations from a re-analysis of the deposited data

How the results depend on the processing

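No paired analysis was possible because the columns carry no replicate numbers, so a replicate block could not be fitted. Notch2 and Hey2 kept direction and call under every alternative in which they were tested. Leaving out each library in turn gave 11422 to 11605 genes called, 5582 to 5669 higher in HT and 5820 to 5968 in pSHF, and 9 members (5 and 4) each time. With equal library totals, and also without the erythroid genes in those totals, 2 members were higher in HT; Jag1 turned to -0.070 and -0.017 and Hey1 to -0.19 and -0.13, and Jag2 to -0.0086 with equal totals (log2 fold changes). On the raw counts, 0 to 41 per member and library, calls were lost and fold changes also moved (DESeq2 gave -0.48 for Notch3 and -0.47 for Heyl), and the cause was not tested. There edgeR called 1629 genes (850 higher in HT, 779 in pSHF) and 0 members (0 and 0) of the 2 it tested, and 0 of them had an unadjusted p under 0.05. DESeq2 called 2188 (1183 and 1005) and 2 members (1 and 1), and edgeR without a filter 2889 (1497 and 1392) and 2 members (1 and 1). DESeq2 and unfiltered edgeR on raw counts turned Jag2 to -0.23 and -0.21, Mib1 to 0.22 and 0.20, the ventricular list gene Mycn to 0.15 and 0.14 and the endoderm list gene Krt8 to 1.06 and 0.97, and unfiltered edgeR turned the somite list gene Tbx6 to 0.13. The Tbx6 call was also lost at pseudocount 0.5, without the filter and in 10 of 12 leave-one-out fits. With the list median in place of the mean, the ratio to endothelial genes was -0.21 for Dll4, turned, and 0.082 for Notch1, no longer past the threshold. Leave-one-out differences ran from 0.13 to 0.25 for Dll4 against Jag1 and from 0.083 to 0.16 for Dll4 against endothelial genes; both passed without pSHF library MR17.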
